A study of Mus musculus with 9 samples.

Results

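The *Hox* genes of the mouse were described here across 9 RNA-seq libraries of primary mouse embryonic fibroblasts (MEFs) that had received an ectopic *CRX* gene or a control plasmid. Members were all genes of the count table named *Hox* followed by a cluster letter and a paralogue number, which gave 39 of 22068 listed genes. They lie in 4 clusters on the GRCm38 (mm10) assembly: *HoxA* on chromosome 6 (*Hoxa2* to *Hoxa13* at chr6:52162417-52260880), *HoxB* at chr11:96194361-96368254, *HoxC* at chr15:102921116-103036856 and *HoxD* at chr2:74668310-74765142. The comparison addresses whether the CRX homeodomain proteins of an opossum and of human alter transcription differently when placed in the same cells.

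All 9 libraries came from C57Bl/6 MEFs at passage 2, electroporated with a plasmid that also carried puromycin resistance and kept under puromycin for 5 days. Groups of 3 libraries each received V5-tagged opossum *CRX* (metatherian CRX), V5-tagged human *CRX* (eutherian CRX) or the puromycin plasmid with no homeobox gene (control). The sample records put 48 h of recovery after selection, whereas the methods of the study put it before puromycin and give an overnight culture after it. The resistant cells were not cloned, the promoter driving *CRX* is not given in the sources used here, and nothing states that the 3 libraries of a group came from separate embryos, so p-values measure the spread between these libraries, which may be technical. The 3 groups carry the numbers 1 to 3, and the fit reported here kept that number as a block because the study describes its samples as prepared and analysed in pairs. Library totals ran from 54145701 to 94699657 counts. The mouse *Crx* gene had 627, 995 and 313 counts in eutherian CRX libraries 1 to 3, none in the 3 control libraries, and 4, 0 and 0 in the metatherian CRX libraries. These counts do not tell reads of the human transgene from reads of the mouse gene. The table lists mouse genes only, so it does not check for the opossum transgene. Of 10 fibroblast markers all 10 were expressed above the minimum used here, *Vim* at 3880 to 5650 CPM (CPM being counts divided by the TMM-adjusted library total and scaled up), whereas of 6 epithelial markers only *Krt18* passed that minimum.

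*Hox* genes encode homeodomain transcription factors that assign position along the head-to-tail axis and along the limbs and genital tubercle. Their order on the chromosome follows their order of use in the embryo, from the anterior paralogue groups, numbered lowest, to the posterior groups, numbered highest. The posterior genes of *HoxA* and *HoxD* are also used in the distal limb. Fibroblasts in culture keep much of the *Hox* code of the body region they were taken from, so a MEF culture, made from most of the embryo trunk and limbs, reads as a mixture of codes. Polycomb and Trithorax complexes hold the clusters silent or active, and TALE homeodomain proteins such as MEIS and PBX bind DNA together with many HOX proteins.

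Of the 39 genes, 22 passed both the count filter and a minimum mean of 2 FPKM in at least 1 condition and were tested, 6 each from *HoxA* and *HoxB* and 5 each from *HoxC* and *HoxD*. Here FPKM is the CPM, by library total, divided by the length of the merged exons in kilobases, and it is the only scale on which genes are set against each other. A further 14 genes passed the count filter but not the FPKM minimum. *Hoxb13* and *Hoxd1* had at most 4 counts in any library. *Hoxb1*, which marks a single hindbrain segment in the embryo, had 0 counts in all 9 libraries, a value that leaves room for up to 3 counts in a library, by counting error alone. A gene can pass the FPKM minimum through the condition in which it is high, so the 22 tested genes are not a stand-in for the 39.

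On the FPKM scale the posterior genes of the 4 clusters (paralogue groups 9 to 13) made up 58.1 to 89.7% of the summed *Hox* FPKM of a library, the least in control library 3. *Hoxd13*, a distal limb and genital gene, had the highest level at 54.1 ± 26.1 FPKM in control, 82.5 ± 41.7 in eutherian CRX and 53.6 ± 15.5 in metatherian CRX (SD, n = 3). It alone gave 13.1 to 48.3% of the summed *Hox* FPKM of a library. The highest member of *HoxA* was *Hoxa10*, at 17.2 ± 1.43 FPKM in control. The highest of *HoxC* in control was *Hoxc8*, a thoracic gene, at 11 ± 4.93 FPKM, close to *Hoxc10*, a hindlimb and lumbar gene, at 10.0 ± 3.41 FPKM, and the highest of *HoxB* was *Hoxb9* at 5.55 ± 2.74 FPKM. *Hoxa10* and *Hoxd13* were thus well above *Hoxb9* in level, while *Hoxc10* and *Hoxb9* overlapped in their control libraries (7.19 to 13.8 against 3.20 to 8.56 FPKM).

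The summed FPKM of the 39 genes ran from 172 to 230 per library, and its division among the clusters did not stay the same. *HoxB* gave 5.76, 9.41 and 18.7% of the sum in control libraries 1 to 3, against 2.47, 2.99 and 15% in eutherian CRX and 3.64, 3.92 and 14% in metatherian CRX. *HoxC* gave 11.5, 15.6 and 25.3% in control, 4.49, 5.39 and 11% in eutherian CRX and 12.0, 10.2 and 16.7% in metatherian CRX. *HoxD* gave 53.4, 44.9 and 24.9% in control, 64.0, 62.0 and 35.1% in eutherian CRX and 51.6, 50.9 and 35.8% in metatherian CRX. Library 3 of each condition therefore held more *HoxB* and less *HoxD* transcript than its 2 partners. The ratio of summed FPKM of *HoxB* and *HoxC* groups 1 to 9 to that of *HoxA* and *HoxD* groups 9 to 13 was 0.167, 0.292 and 0.846 in control libraries 1 to 3. It was 0.0559, 0.0692 and 0.372 in eutherian CRX and 0.118, 0.107 and 0.474 in metatherian CRX. Every CRX library was below the control library of its own number in this ratio, although library 3 of either CRX condition was above controls 1 and 2.

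**Figure D1:**
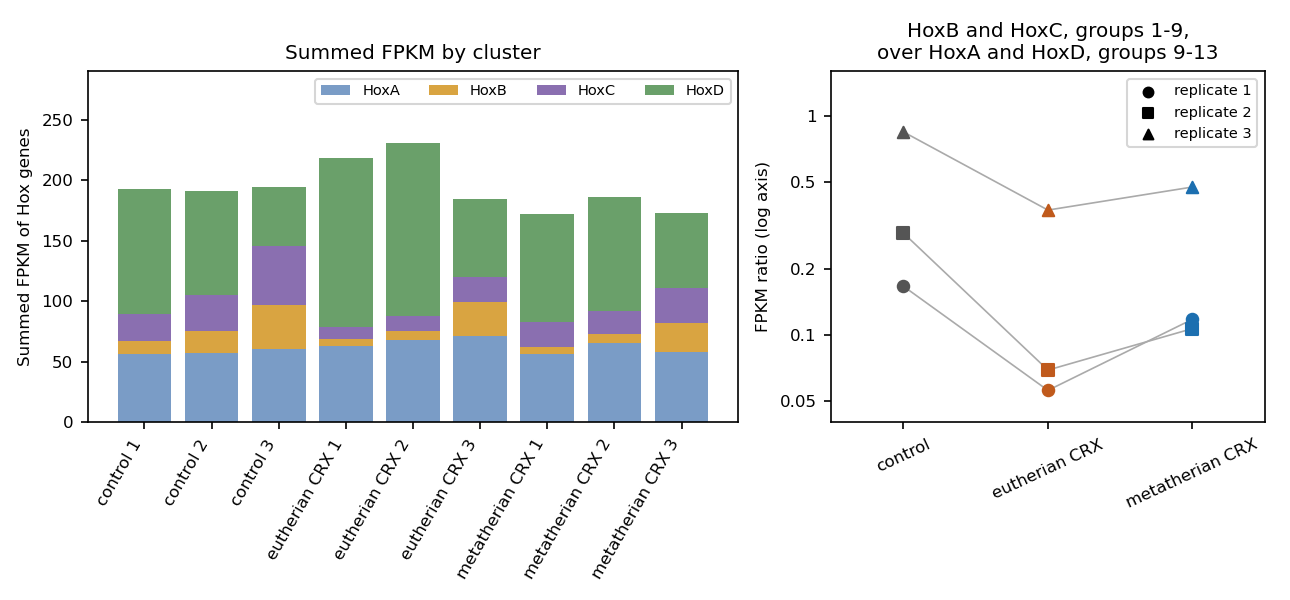
Left, summed FPKM of the 39 *Hox* genes in each of the 9 libraries (x axis, condition and replicate number), stacked by cluster. Right, the ratio of summed FPKM of *HoxB* and *HoxC* groups 1 to 9 to that of *HoxA* and *HoxD* groups 9 to 13 on a log axis, 1 point per library, with grey lines joining libraries of the same number; the points run from 0.0559 in eutherian CRX library 1 to 0.846 in control library 3, and each line is highest at control.

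Libraries of a single condition also differed by number, and in many of the same genes. In 11 of the 22 tested genes library 3 was the highest of its group in all 3 conditions, as it was for 13.1% of the 10100 genes tested. These were *Hoxa5*, all 6 tested *HoxB* genes, *Hoxc5*, *Hoxc6*, *Hoxc8* and *Hoxc9*. In 7 genes library 3 was the lowest of its group in all 3 conditions (13.3% of all genes): *Hoxa9*, *Hoxa10*, *Hoxa13*, *Hoxd10*, *Hoxd11*, *Hoxd12* and *Hoxd13*. The tested *HoxB* genes and *HoxC* genes up to group 9 thus had their highest values, and most posterior *HoxA* and *HoxD* genes their lowest, in the same libraries. Library 3 also stood apart outside the *Hox* genes. *Col3a1*, a fibrillar collagen, had 9250, 6790 and 3690 CPM in control and 5110, 6110 and 294 CPM in eutherian CRX, and *Krt18*, an epithelial keratin, had 0.0998, 0.221 and 11.8 CPM in eutherian CRX. Markers of the same cell types did not all move alike. The fibroblast markers *Pdgfra* and *Thy1* were highest in library 3 of each condition (control, eutherian CRX, metatherian CRX), at 282, 368 and 382 CPM and at 700, 161 and 283 CPM. The epithelial marker *Cdh1* was lowest there, at 0.258, 0.159 and 0.213 CPM. The part of such a difference between libraries in the *Hox* results was not tested. For this reason the value in each library is given below.

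**Figure D2:**
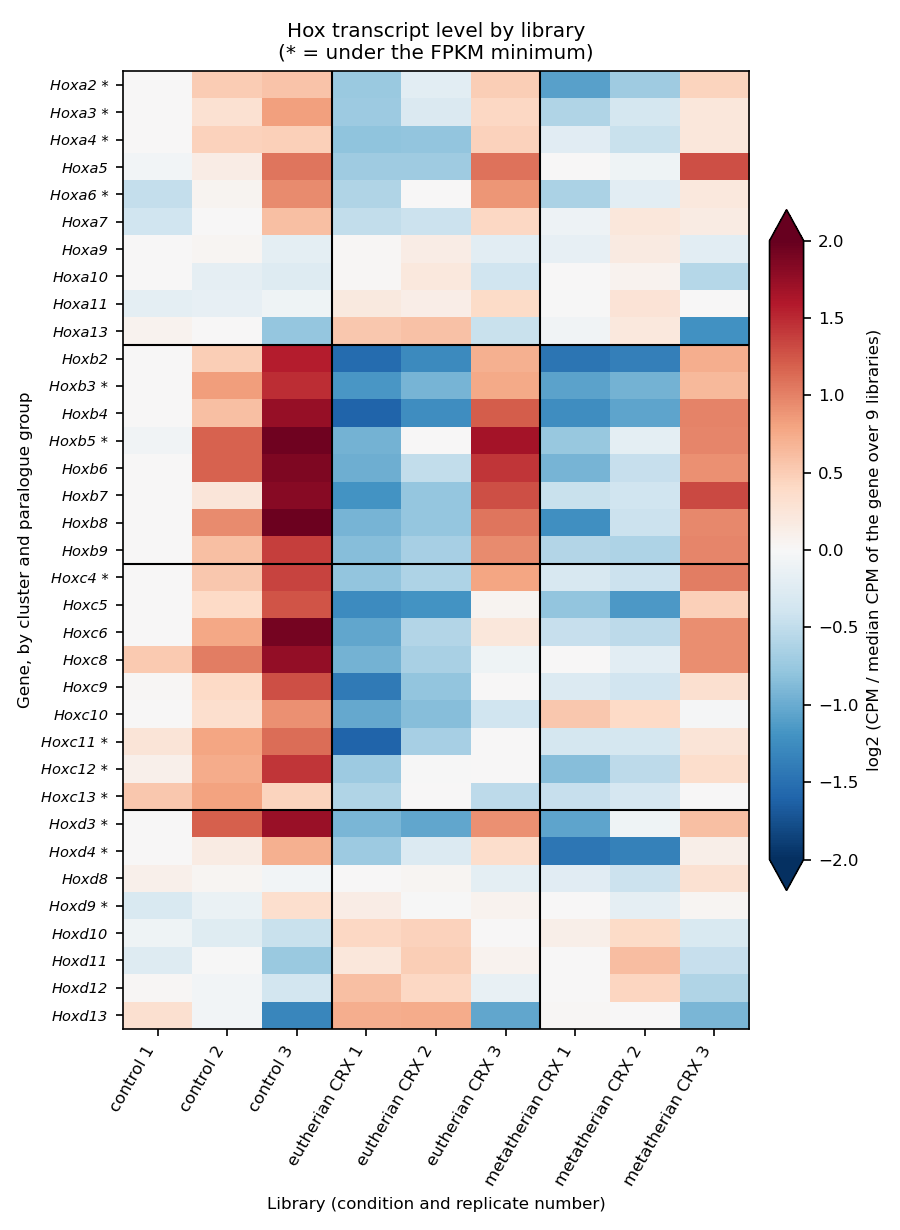
Level of *Hox* genes that passed the count filter (y axis, by cluster and paralogue group) in the 9 libraries (x axis), as log2 of CPM over the median CPM of the gene; asterisks mark genes under the FPKM minimum. The *HoxB* rows are darkest red in control library 3, where *Hoxb8* had 11.4 CPM, and bluest in CRX libraries 1 and 2, *Hoxc10* and *Hoxc13* depart from this pattern, and *Hoxd13* has the opposite shading between libraries 1 and 3.

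In the reported fit eutherian CRX was the comparison with the most *Hox* genes past a threshold. By adjusted p this order turned without eutherian CRX library 3. Then 7 were called in metatherian CRX (8.79% of all genes) and 0 in eutherian CRX (0.0%). With only the 6 libraries compared it was 1 (3.94%) and 0 (0.0%). *Hoxc8* and *Hoxc6*, central genes used in the thoracic trunk and forelimb region, fell in eutherian CRX relative to control. *Hoxc8* had 16.9, 23.7 and 39.6 CPM in control libraries 1 to 3 and 6.05, 7.50 and 11 CPM in eutherian CRX. The groups did not overlap, and the decrease was 3.17-fold (log2 fold change -1.67, SE 0.17, adjusted p = 0.027 by edgeR's quasi-likelihood test). *Hoxc6* had 13.99, 23.9 and 52.5 CPM in control and 6.84, 9.36 and 16.4 CPM in eutherian CRX. Its groups overlapped through library 3 of eutherian CRX, and the decrease was 2.57-fold (log2 fold change -1.36, SE 0.19, edgeR adjusted p = 0.039). With 59 of 10100 genes called lower (0.584%) and 2 called higher (0.0198%), these were the only *Hox* genes called by edgeR, both lower. DESeq2 with the same block called 11 lower and 2 higher of the 22, among 3.3% of all genes called in either direction. The 11 were all tested *HoxB* and *HoxC* genes, and the 2 were *Hoxd10* and *Hoxd11*. Neither edgeR call was firm. Without the replicate block *Hoxc8* had an edgeR adjusted p of 0.278 and *Hoxc6* of 0.758. Leaving out any control or eutherian CRX library, or metatherian CRX library 1, also ended both calls, and leaving out metatherian CRX library 2 ended that of *Hoxc6*; adjusted p was then 0.0662 to 0.274 for *Hoxc8* and 0.0502 to 0.302 for *Hoxc6*. Over the reported fit and its 18 alternatives *Hoxc8* was called in 10 and *Hoxc6* in 9, with log2 fold changes of -1.79 to -1.57 and -1.54 to -1.21.

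At an unadjusted p under 0.05, 12 of the 22 tested *Hox* genes were lower in eutherian CRX than in control, where 6.34% of all genes were, and 6 were higher, where 2.23% were. The 12 were all 6 tested *HoxB* genes, all 5 tested *HoxC* genes and *Hoxa5*. The 6 were *Hoxa11*, *Hoxa13*, *Hoxd10*, *Hoxd11*, *Hoxd12* and *Hoxd13*, every one of paralogue group 10 or higher. Leaving out each library in turn left 11 or 12 lower, but the 6 higher became 2 without control library 2 or eutherian CRX library 1, 3 without eutherian CRX library 2 and 4 without control library 1. Neighbouring *Hox* genes share regulation, so these counts do not stand for independent genes. The median log2 fold change was -0.68 over the 22 genes and 0.00 over all genes tested. It was 0.06 in *HoxA*, -1.10 in *HoxB*, -1.35 in *HoxC* and 0.49 in *HoxD*, and over the 36 genes that passed the count filter it was -0.21, -1.08, -1.28 and 0.28 in the same order, so that the sign for *HoxA* turned. Without the replicate block 5 of the 22 genes were lower and 2 higher at an unadjusted p under 0.05, where 6.09% of all genes had such a p in either direction. The 5 were the tested *HoxC* genes and the 2 were *Hoxa11* and *Hoxd10*.

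*HoxC* had the lowest median of the 4 clusters in eutherian CRX, although *Hoxb2* and *Hoxb4* lay within the range of its genes. *Hoxc10* had 14.3, 18.0 and 26.8 CPM in control and 7.01, 7.94 and 10.9 CPM in eutherian CRX, with no overlap (log2 fold change -1.18, SE 0.27, edgeR adjusted p = 0.19). *Hoxc9*, a thoracic gene, had 4.64, 6.04 and 11.2 CPM in control and 1.72, 2.64 and 4.58 CPM in eutherian CRX, again with no overlap (log2 fold change -1.30, SE 0.21, edgeR adjusted p = 0.063). *Hoxc5* had 3.80, 4.99 and 9.06 CPM against 1.597, 1.65 and 3.97 CPM (log2 fold change -1.35, SE 0.21, edgeR adjusted p = 0.053). *Hoxc8*, *Hoxc9* and *Hoxc10* were the 3 tested *Hox* genes with every eutherian CRX library below every control library, an arrangement found in 7.79% of all genes.

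The *HoxB* genes were lower in eutherian CRX in each of the 3 numbered pairs, but their groups overlapped through library 3 of eutherian CRX. *Hoxb2*, used in the hindbrain, had 2.44, 3.41 and 7.27 CPM in control and 0.836, 1.00 and 3.99 CPM in eutherian CRX (log2 fold change -1.40, SE 0.25, edgeR adjusted p = 0.083). Of its exon bases 52.3% lie opposite exons of the antisense gene *Hoxb3os*, and since the strand setting of the counting is not given, reads of the pair cannot be told apart. *Hoxb4*, used in the hindbrain, neck and blood stem cells, had 2.72, 4.13 and 9.10 CPM in control and 0.898, 1.15 and 6.31 CPM in eutherian CRX (log2 fold change -1.31, SE 0.28, edgeR adjusted p = 0.16). *Hoxb8*, used in the trunk, had 2.94, 5.64 and 11.4 CPM in control and 1.54, 1.71 and 6.18 CPM in eutherian CRX (log2 fold change -1.17, SE 0.21, edgeR adjusted p = 0.092). *Hoxb9*, the most abundant of the cluster, had 23.6, 35.9 and 61.7 CPM in control and 13.1, 15 and 45.3 CPM in eutherian CRX (log2 fold change -0.86, SE 0.18, edgeR adjusted p = 0.15). None of the 6 passed the adjusted threshold by edgeR, whereas DESeq2 called all 6 lower. Within pairs the difference was smallest in pair 3, for example -0.53 for *Hoxb4* against -1.6 and -1.84 on the log2 scale in pairs 1 and 2.

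Of the 8 tested *HoxA* and *HoxD* genes of groups 9 to 13, the 6 past the unadjusted threshold were higher in eutherian CRX, by smaller amounts, while *Hoxa9* (log2 fold change 0.04, SE 0.11) and *Hoxa10* (0.09, SE 0.13) overlapped control and differed in sign between pairs. *Hoxd11*, used in the forearm and lower leg, had 19.7, 23.4 and 14.1 CPM in control and 27.8, 33.2 and 24.7 CPM in eutherian CRX, with no overlap (log2 fold change 0.61, SE 0.14, edgeR adjusted p = 0.20). *Hoxd10* had 22.7, 20.3 and 17.6 CPM against 32.2, 33.1 and 24.0 CPM, also without overlap (log2 fold change 0.55, SE 0.12, edgeR adjusted p = 0.18). *Hoxa11*, a forearm and uterus gene, had 29.95, 30.6 and 32.2 CPM against 39.2, 37.5 and 44.5 CPM (log2 fold change 0.39, SE 0.12, edgeR adjusted p = 0.41). These were the 3 tested *Hox* genes with every eutherian CRX library above every control library, which held for 6.19% of all genes. *Hoxa11* shares 35.0% of its exon bases with the antisense gene *Hoxa11os*, and *Hoxd10* and *Hoxd11* share 2.98% and 1.97% of theirs with each other. *Hoxa13*, a gene of the hand, foot and hindgut, had 11.4, 10.9 and 6.38 CPM against 15.7, 16.3 and 7.99 CPM (log2 fold change 0.45, SE 0.15, edgeR adjusted p = 0.45). *Hoxd12*, used in the distal limb, had 12.4, 11.7 and 9.43 CPM against 18.5, 16.1 and 11 CPM (log2 fold change 0.42, SE 0.17, edgeR adjusted p = 0.58). Both overlapped control through library 3. *Hoxd13* had 198, 154 and 64.4 CPM in control and 262.5, 266 and 77.2 CPM in eutherian CRX, higher in each pair but with overlapping groups (log2 fold change 0.49, SE 0.19, edgeR adjusted p = 0.53). In the numbered pairs 12 tested *Hox* genes were lower in eutherian CRX in all 3 pairs (17.3% of all genes) and 6 were higher in all 3 (16.0% of all genes).

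**Figure D3:**
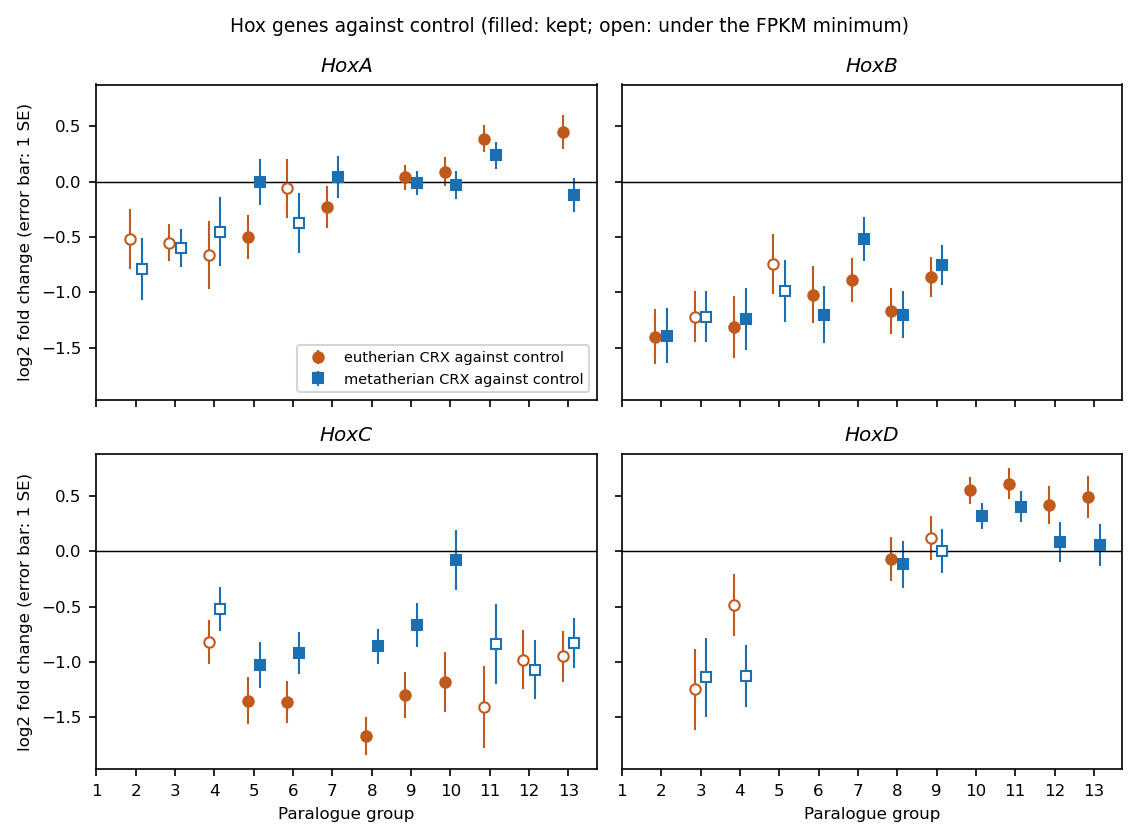
log2 fold change against control (y axis, with 1 SE derived from edgeR's F statistic) by paralogue group (x axis) in each cluster. Eutherian CRX is shown as orange circles and metatherian CRX as blue squares. Filled symbols are the 22 tested genes and open symbols genes under the FPKM minimum. *HoxB* and *HoxC* values lie below 0 in both comparisons, from -1.67 for *Hoxc8* in eutherian CRX to -0.08 for *Hoxc10* in metatherian CRX, and the posterior *HoxD* values lie at or above 0.

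In metatherian CRX no *Hox* gene passed the adjusted threshold relative to control, by edgeR, where 3 of 10100 genes were called lower (0.0297%) and none higher (0.0%). DESeq2 with the same block called 8 of the 22 *Hox* genes lower and none higher, among 1004 of 10100 genes called in either direction (9.94%). At an unadjusted p under 0.05 by edgeR, 10 of the 22 were lower, where 10.5% of all genes were, and 2 were higher, where 9.04% were. The 2 higher are 9.09% of the 22, near the share over all genes. The 10 were all 6 tested *HoxB* genes with *Hoxc5*, *Hoxc6*, *Hoxc8* and *Hoxc9*, and the 2 were *Hoxd10* and *Hoxd11*. Leaving out each library in turn left 8 to 10 lower and 0 to 3 higher, with 0 higher without control library 2, eutherian CRX library 1 or metatherian CRX library 1 or 2. Without the replicate block none of the 22 had an unadjusted p under 0.05, although 1317 of the 10100 genes did (13%). Leaving out eutherian CRX library 3, which does not enter the comparison itself but shares its estimate of spread and its block, left 7 *Hox* genes called lower among 888 genes called, and leaving out metatherian CRX library 3 left 1, *Hoxb2*, among 484. The control libraries are the same in both comparisons, so a high control library moves both alike.

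Over the 22 genes the median log2 fold change in metatherian CRX was -0.12, against -0.01 over all genes tested. Leaving out each library in turn moved it between -0.3 and -0.12, the medians within the numbered pairs were -0.30, -0.36 and -0.44, and it was -0.56 over the 36 genes that passed the count filter. By cluster it was -0.01 in *HoxA*, -1.20 in *HoxB*, -0.86 in *HoxC* and 0.08 in *HoxD*, and over the 36 genes -0.09, -1.18, -0.83 and 0.04. *Hoxb2* had 0.888, 0.942 and 4.04 CPM in metatherian CRX (log2 fold change against control -1.39, SE 0.25, edgeR adjusted p = 0.079). *Hoxb4* had 1.15, 1.31 and 5.42 CPM (log2 fold change -1.24, SE 0.28, edgeR adjusted p = 0.10). *Hoxb8* had 1.25, 2.19 and 5.71 CPM (log2 fold change -1.20, SE 0.21, edgeR adjusted p = 0.079). In all 3 genes libraries 1 and 2 lay below every control library, and library 3 lay above controls 1 and 2, as in eutherian CRX. *Hoxb6*, with 1.26, 1.76 and 4.56 CPM against 2.42, 5.45 and 8.85 CPM in control, had a log2 fold change of -1.20 (SE 0.26, edgeR adjusted p = 0.099). No tested *Hox* gene had all 3 metatherian CRX libraries below all 3 control libraries, which 12.2% of all genes had.

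Among *HoxC* genes *Hoxc8* had 11.7, 10.1 and 22.3 CPM in metatherian CRX, overlapping control through library 3 (log2 fold change -0.86, SE 0.16, edgeR adjusted p = 0.085). *Hoxc10* had 20.7, 18.9 and 13.99 CPM there, within the range of control apart from library 3, which was just below it (log2 fold change -0.08, SE 0.27, edgeR adjusted p = 0.90). *Hoxc10* was the only *HoxC* gene tested with pairs in both directions, higher than control in pairs 1 and 2 by 0.53 and 0.07 and lower in pair 3 by 0.94 on the log2 scale, and its fold change turned to 0.14 without control library 3 and to 0.27 without metatherian CRX library 3. Among posterior genes *Hoxd11* had 23.6, 36.3 and 17.2 CPM (log2 fold change 0.40, SE 0.14, edgeR adjusted p = 0.20) and *Hoxd10* had 25.9, 31.4 and 19.5 CPM (log2 fold change 0.32, SE 0.12, edgeR adjusted p = 0.22). *Hoxd12* had 12.2, 16.4 and 8.02 CPM, on either side of control (log2 fold change 0.08, SE 0.18, edgeR adjusted p = 0.83). *Hoxa11*, at 34.1, 41.3 and 34.3 CPM, was the 1 tested *Hox* gene with all 3 metatherian CRX libraries above control (11.1% of all genes), with a log2 fold change of 0.24 (SE 0.12, edgeR adjusted p = 0.33). The differences of *Hoxa11*, *Hoxd11* and *Hoxd10* shrank when 1 library was left out, to 0.12 for *Hoxa11* and 0.26 for *Hoxd11* without metatherian CRX library 2 and to 0.21 for *Hoxd10* without control library 2. Lower in all 3 numbered pairs were 10 of the 22 genes (25.1% of all genes) and higher in all 3 were 3 (22.3% of all genes). The count of 3 is not above the share over all genes.

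**Figure D4:**
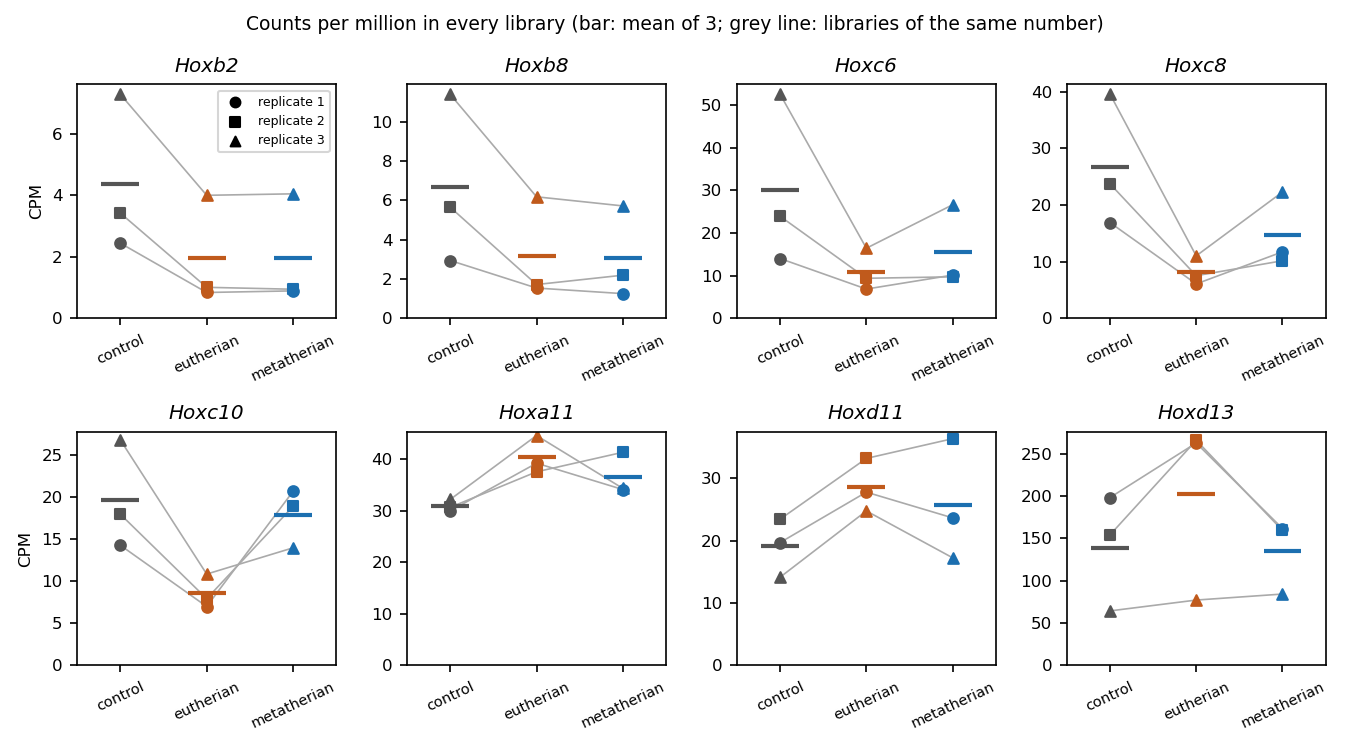
CPM (y axis, from 0) of 8 *Hox* genes in the 3 conditions (x axis), 1 point per library with its replicate number as symbol, a bar at the mean of 3 and grey lines between libraries of the same number. *Hoxc8* and *Hoxc10* show no overlap of eutherian CRX (at most 11 and 10.9 CPM) with control (at least 16.9 and 14.3 CPM), whereas *Hoxb2* and *Hoxb8* overlap through the high library 3.

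The 14 genes under the FPKM minimum were fitted together with all genes that passed the count filter, 14599 in all. Over the 36 *Hox* genes of that fit, 19 were lower and 2 higher in metatherian CRX than in control at an unadjusted p under 0.05 (10.8% and 9.61% of all genes). In eutherian CRX 20 were lower and 6 higher (7.16% and 2.49% of all genes). The added genes were mostly anterior members of *HoxA* and *HoxD* and the posterior end of *HoxC*. *Hoxd4* had 1.46, 1.63 and 2.39 CPM in control, 0.886, 1.21 and 1.85 CPM in eutherian CRX and 0.538, 0.570 and 1.58 CPM in metatherian CRX. *Hoxc13*, used in hair and nail, had 4.45, 5.34 and 4.18 CPM in control, 2.01, 3.06 and 2.13 CPM in eutherian CRX and 2.23, 2.41 and 3.05 CPM in metatherian CRX, with every CRX library below every control library. Its library 3 was not the highest in control or eutherian CRX, unlike the *HoxB* genes. Its log2 fold change was -0.95 (SE 0.23, edgeR adjusted p = 0.17) in eutherian CRX and -0.83 (SE 0.23, edgeR adjusted p = 0.12) in metatherian CRX. *Hoxc11* had 0.365, 0.525 and 0.658 CPM in control, 0.0998, 0.192 and 0.304 CPM in eutherian CRX and 0.238, 0.239 and 0.365 CPM in metatherian CRX. *Hoxc12* had 1.02, 1.59 and 2.56 CPM in control, 0.574, 0.945 and 0.952 CPM in eutherian CRX and 0.525, 0.663 and 1.22 CPM in metatherian CRX. In both genes eutherian CRX lay below control without overlap. Over all clusters together the log2 fold change followed paralogue group less closely once these genes were added. Spearman's rho between paralogue group and log2 fold change was 0.76 over the 22 tested genes and 0.37 over 36 in eutherian CRX, and 0.71 and 0.49 in metatherian CRX, given as a description since genes of a cluster share libraries and regulation. Within *HoxD* it went up instead, from 0.20 over 5 genes to 0.81 over 8 in eutherian CRX and from 0.10 to 0.79 in metatherian CRX. Within *HoxA* it went from 1.0 to 0.86 and from -0.37 to 0.55, and within *HoxC* from 0.60 to 0.13 and from 1.0 to -0.08. Within *HoxB* it went from 0.83 to 0.67 and from 0.71 to 0.79. Group and cluster are partly the same thing here: no tested *HoxB* gene is above group 9, and the posterior genes *Hoxc11*, *Hoxc12* and *Hoxc13* had log2 fold changes below 0 in either comparison with control, as all tested *HoxC* genes had, *Hoxc10* in metatherian CRX only at -0.08 with a sign that turned between alternatives.

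Set directly against each other, the CRX conditions differed in no *Hox* gene at the adjusted threshold by edgeR, which called no gene at all in either direction (0.0% and 0.0% of 10100). DESeq2 called 2 *Hox* genes higher with metatherian CRX, *Hoxc8* and *Hoxc10*, and none lower, where it called 3.14% of all genes in either direction. At an unadjusted p under 0.05 by edgeR 5 of the 22 genes were higher with metatherian CRX (7.41% of all genes) and 1 lower (4.13% of all genes). Of the 5, 4 were *HoxC* genes and the other was *Hoxa5*, and the lower gene was *Hoxa13*. *Hoxc10* had the largest difference, with 20.7, 18.9 and 13.99 CPM in metatherian CRX against 7.01, 7.94 and 10.9 CPM in eutherian CRX, a 2.15-fold difference without overlap (log2 fold change 1.10, SE 0.27, edgeR adjusted p = 0.28). It was the only tested *Hox* gene with metatherian CRX above eutherian CRX in every library (6.25% of all genes), and none had the reverse (5.29%). *Hoxc8* differed by 0.81 on the log2 scale (SE 0.16, edgeR adjusted p = 0.27) and *Hoxc9*, at 3.78, 3.50 and 5.74 CPM with metatherian CRX, by 0.62 (SE 0.21, edgeR adjusted p = 0.35). *Hoxa5*, used in the lung and neck, had 5.83, 5.49 and 14.2 CPM with metatherian CRX and 3.56, 3.54 and 12.4 CPM with eutherian CRX (log2 fold change 0.50, SE 0.20, edgeR adjusted p = 0.41), and its groups overlapped. Among the 22 tested genes the largest differences the other way were in posterior genes, while *Hoxd4*, an anterior gene under the FPKM minimum, had a log2 fold change of -0.64 (SE 0.28, edgeR adjusted p = 0.44). *Hoxa13* had 10.3, 12.5 and 4.71 CPM in metatherian CRX against 15.7, 16.3 and 7.99 CPM in eutherian CRX (log2 fold change -0.57, SE 0.15, edgeR adjusted p = 0.30). *Hoxd13* followed at -0.44 (SE 0.19, edgeR adjusted p = 0.44), from 162, 159 and 84.3 CPM with metatherian CRX. Next were *Hoxd12* at -0.34 (SE 0.17, edgeR adjusted p = 0.51) and *Hoxd10* at -0.22 (SE 0.12, edgeR adjusted p = 0.54). Leaving out each library in turn gave -0.54 to -0.23 for *Hoxd12* and -0.34 to -0.16 for *Hoxd10*. Leaving out 1 library moved *Hoxd13* to -0.28 without eutherian CRX library 2, -0.29 without metatherian CRX library 1 and -0.67 without metatherian CRX library 3, and *Hoxc9* to 0.40 without metatherian CRX library 1. Without the block *Hoxc10* was the 1 gene of the 22 with an unadjusted p under 0.05, as 6.4% of all genes had in either direction. In the fit of 14599 genes, 5 of 36 *Hox* genes were higher (7.41% of all genes) and 1 lower (4.26%).

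By cluster, the median log2 difference of metatherian from eutherian CRX was -0.08 in *HoxA*, 0.04 in *HoxB*, 0.62 in *HoxC* and -0.22 in *HoxD*, and -0.01 over all genes; over the 36 genes it was -0.05, 0.00, 0.45 and -0.21 by cluster. The difference between the CRX conditions ran from -0.17 to 0.37 over the 6 tested *HoxB* genes, the highest being *Hoxb7*, while *HoxC* was lower with eutherian CRX in all 5 tested genes. In the numbered pairs 8 of the 22 genes were higher with metatherian CRX in all 3 pairs (18.6% of all genes), 5 of them *HoxC* genes, and 3 were lower in all 3 (13.6% of all genes), namely *Hoxa10*, *Hoxa13* and *Hoxd10*.

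Genes that work with or upon the clusters were examined from lists. Of 9 TALE genes 8 were tested and none was called by edgeR in any comparison, and in each comparison with control 3 were lower at an unadjusted p under 0.05 (6.34% of all genes in eutherian CRX and 10.5% in metatherian CRX). *Meis1* had 8.23, 11.9 and 24.4 CPM in control, 3.69, 4.81 and 17.5 CPM in eutherian CRX and 5.35, 6.15 and 20.7 CPM in metatherian CRX. Its log2 fold change was -0.98 (SE 0.19, edgeR adjusted p = 0.11) in eutherian CRX and -0.62 (SE 0.19, edgeR adjusted p = 0.16) in metatherian CRX, with library 3 high in each group as for *HoxB*. *Meis2* had log2 fold changes of -0.63 (SE 0.10, edgeR adjusted p = 0.058) and -0.31 (SE 0.10, edgeR adjusted p = 0.17). DESeq2 called both lower in eutherian CRX. The others at the unadjusted threshold were *Pknox2* in eutherian CRX (-0.53, and -0.26 without eutherian CRX library 3 or -0.32 without control library 3) and *Meis3* in metatherian CRX (-0.42).

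Of 25 listed regulators of the clusters 17 were tested, none was called by edgeR in a comparison with control, and at an unadjusted p under 0.05 3 were lower in eutherian CRX (6.34% of all genes) and 4 in metatherian CRX (10.5%). *Kdm6b*, which removes the Polycomb mark on lysine of histone H3, was among them in both, at 63.1, 74.2 and 77.8 CPM in control, 51.1, 58.0 and 46.9 CPM in eutherian CRX and 38.5, 50.5 and 28.2 CPM in metatherian CRX (log2 fold changes -0.48 and -0.91, edgeR adjusted p = 0.50 and 0.085). The others included the Polycomb methyltransferase gene *Ezh2* (-0.54) and the growth factor *Gdf11* (-0.56) in eutherian CRX, and in metatherian CRX the Polycomb gene *Cbx8* (-0.51) and the retinoic acid hydroxylase gene *Cyp26b1* (-0.48). Without control library 3 the eutherian CRX values were -0.26 for *Kdm6b* and -0.25 for *Gdf11*. Of the regulators named here DESeq2 called *Kdm6b* and *Cbx8* lower in metatherian CRX and none in eutherian CRX. *Cdx1*, *Cdx2* and *Cdx4*, which act on *Hox* clusters in the early trunk, had at most 6 counts in any library.

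Of 24 named neighbours 15 were in the table and 8 were tested, and none had an unadjusted p under 0.05 in any of the 3 comparisons; their median log2 fold changes against control were 0.07 in eutherian CRX and 0.00 in metatherian CRX. The 8 lie by *HoxA*, *HoxC* and *HoxD*, and no neighbour of *HoxB* was high enough to test. *Calcoco1*, next to *HoxC*, had a log2 fold change of 0.02 (SE 0.17) in eutherian CRX. *Skap2*, next to *HoxA*, had -0.22 in either CRX condition (SE 0.22 and 0.21), and *Mtx2*, next to *HoxD*, had 0.08 and 0.04 (SE 0.14 for either).

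Of 14 other genes of limb and axial position 11 were tested, and edgeR called 1 of them lower in eutherian CRX (0.584% of all genes). *Shox2*, a gene of the proximal limb, had 29.7, 28.7 and 35.6 CPM in control and 14.9, 16.0 and 20.5 CPM in eutherian CRX, and fell there (log2 fold change -0.88, SE 0.12, edgeR adjusted p = 0.039). Without the replicate block its edgeR adjusted p was 0.303, and leaving out any library other than metatherian CRX library 3 also ended the call (edgeR adjusted p = 0.0746 to 0.344), with log2 fold changes of -0.96 to -0.81 over the leave-outs. In metatherian CRX it had 18.2, 17.9 and 29.0 CPM (log2 fold change -0.56, SE 0.12, edgeR adjusted p = 0.098). *En1*, a gene of ventral limb ectoderm and of trunk dermis, had 7.12, 11 and 17.4 CPM in control, 2.98, 4.12 and 5.65 CPM in eutherian CRX and 1.65, 2.07 and 5.94 CPM in metatherian CRX, with no CRX library as high as a control library. Its log2 fold changes were -1.42 (SE 0.24, edgeR adjusted p = 0.068) and -1.99 (SE 0.24, edgeR adjusted p = 0.069). *Zic1*, a dorsal trunk gene, had log2 fold changes of -1.22 (edgeR adjusted p = 0.26) and -1.74 (edgeR adjusted p = 0.082), and the limb genes *Lhx2* and *Lhx9* were higher in eutherian CRX by 0.67 and 0.46 (edgeR adjusted p = 0.37 and 0.21). DESeq2 called *En1* and *Zic1* lower in either comparison with control, *Shox2* lower in metatherian CRX too and *Lhx9* higher in eutherian CRX.

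In a bulk culture fewer cells of a type and less RNA per cell cannot be told apart. The summed CPM of the 10 fibroblast markers ran from 41900 to 48300 in control, from 18400 to 39400 in eutherian CRX and from 22600 to 43900 in metatherian CRX. *Col1a1* had 10000, 9210 and 7740 CPM in control, 6490, 6100 and 1090 CPM in eutherian CRX and 5270, 4720 and 1040 CPM in metatherian CRX. Not all 10 were lower: at an unadjusted p under 0.05, 7 were lower (10.5% of all genes) and 1 higher (9.04%) in metatherian CRX, the higher being *Pdgfra* (log2 fold change 0.58), and 3 were lower (6.34%) and none higher (2.23%) in eutherian CRX. The summed CPM of 5 macrophage and leukocyte markers ran from 8.36 to 20.5 in control, 3.54 to 12.7 in eutherian CRX and 4.69 to 6.44 in metatherian CRX. The skeletal muscle marker *Myf5* had 0 counts in every library. The 6 epithelial markers summed to 0.863 to 3.59 CPM in control, 0.487 to 12.6 CPM in eutherian CRX and 1.85 to 9.04 CPM in metatherian CRX, highest in library 3 of either CRX condition, where *Krt18* had 11.8 and 8.22 CPM. Endothelial markers summed to 11.3 to 18.4 CPM over the 9 libraries and skeletal muscle markers to 4.55 to 18.4 CPM. Neural and neural crest markers summed to 92.9 to 143 CPM in control, 54.8 to 160 CPM in eutherian CRX and 53.1 to 70.3 CPM in metatherian CRX. Chondrocyte markers summed to 112 to 127 CPM, 75.1 to 121 CPM and 77.2 to 283 CPM in the same order. The part of these differences in the *Hox* results was not tested.

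Promoter sequence was available from RefSeq (GRCm38.p6) for 22 of the 39 genes, in 24 windows of 250 bases before to 50 after the start. These 22 were set by the sequence available and not by the count and FPKM filters. CRX, like other paired-class proteins of its type, prefers the letters TAATCC. Its first 4 letters, TAAT, are a core that many homeodomains bind. The longer motif was in none of the 24 *Hox* windows on either strand, against 7.06% of 32851 windows of all genes. So few windows cannot tell a count of 0 from that share. The core was in 19 of the 24 on either strand (79.2%), against 58.0% of all windows. It was examined after the other results were known, and every window with the longer motif also holds it. The 120 bases upstream of the start, 5′ to 3′ on the gene's strand, are shown for a pair of genes from the side that was lower and a pair from the side that was higher, with TAAT or its reverse complement ATTA in capitals.
Hoxb4 (chr11:96318147-96318266, plus strand): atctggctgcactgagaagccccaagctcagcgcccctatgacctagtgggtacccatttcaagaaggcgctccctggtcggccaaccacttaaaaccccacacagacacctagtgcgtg
Hoxb8 (chr11:96281785-96281904, plus strand): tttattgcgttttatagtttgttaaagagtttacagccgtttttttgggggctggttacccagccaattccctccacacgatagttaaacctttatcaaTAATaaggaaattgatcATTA
Hoxd10 (chr2:74691771-74691890, plus strand): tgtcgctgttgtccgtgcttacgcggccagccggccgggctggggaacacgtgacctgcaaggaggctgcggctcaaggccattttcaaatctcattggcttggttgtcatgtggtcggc
Hoxd13 (chr2:74668105-74668224, plus strand): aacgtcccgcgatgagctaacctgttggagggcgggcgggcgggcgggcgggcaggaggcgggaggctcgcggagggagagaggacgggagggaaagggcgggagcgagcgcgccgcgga
Within these stretches *Hoxb8* had 2 matches and the other 3 genes had none. A match is a match of letters only, and its lack says nothing of binding outside the window, which was not measured here.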

How the data were processed

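RNA was sequenced as polyA libraries from MEFs, 3 libraries per condition. The authors aligned paired reads with STAR to mm10 and counted reads per gene with featureCounts, and the deposited values are raw counts. Counts of 2 were more frequent than counts of 1 (5427 against 3139 gene and library values), as where the mates of a pair are counted singly; strand and pair settings are not given in the sources used here. Of 22068 genes, 2 of them names listed again, 14599 passed filterByExpr and 10100 also reached a mean of 2 FPKM in at least 1 condition. Counts were fitted in R 4.3.3 with edgeR 4.0.16 (TMM factors 0.96 to 1.11, quasi-likelihood test, condition and replicate number as terms, all 9 libraries sharing the spread). Genes with a Benjamini-Hochberg adjusted p under 0.05 over all tested genes were called. Each SE of a log2 fold change was derived as its absolute value over the square root of the quasi-likelihood F statistic. DESeq2 1.42.0 and limma 3.58.1, other scalings, filters, library subsets and a fit without the block were alternatives. CPM used TMM-scaled totals and FPKM used plain totals with merged exons. Values are given for every *Hox* gene called, the 4 highest and 4 lowest fold changes per comparison, the most abundant gene per cluster and genes whose groups did not overlap. Other *Hox* genes are given by counts and ranges. The members and lists were chosen with earlier results of these data known. Protein sequences were not used here, and some genes of the lists are not reported here.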

Additional observations from a re-analysis of the deposited data

How the results depend on the processing

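The same-number check of the replicate block found a positive correlation of deviations over 0.1 in 8 of 9 same-number pairs (lowest 0.00364, highest between different numbers 0.721), so the numbers are not shown to mark pairs. Without the block, 0, 7 and 1 *Hox* genes had an unadjusted p under 0.05 (metatherian against control, eutherian against control, metatherian against eutherian, the order used below), against 12, 18 and 6 with it, and 0 were called in eutherian CRX. DESeq2 called 8, 13 and 2 *Hox* genes against 0, 2 and 0 in the reported fit, and 9.94, 3.3 and 3.14% of all genes. limma voom with library quality weights called 15, 18 and 12, with 14 at an unadjusted p under 0.05 in the last and a median of -0.25 in the first, but it also called 46.2, 16.8 and 48.3% of all genes. Without the 3 libraries numbered 3, 10, 12 and 7 were called, as were 22.3, 3.43 and 22.6% of all genes, with medians of -0.26 in the first and 0.03 in the last. With only the 6 libraries compared 1 was called in metatherian CRX (3.94% of all genes) and 0 in eutherian CRX (0.0%). Without the FPKM minimum, or with no filter, 21 *Hox* genes had an unadjusted p under 0.05 in metatherian CRX with medians of -0.56 and -0.55 (more genes tested), and no filter gave 4 calls in eutherian CRX (0.595% of all genes). Upper-quartile scaling moved the last median to -0.05. Leaving out each library in turn gave 0 to 7, 0 to 5 and 0 to 1 calls (highest share of all genes 8.79, 1.13 and 3.46%), 3 to 7 genes at an unadjusted p under 0.05 in the last comparison, and medians of -0.3 to -0.12 in the first and -0.04 to 0.14 in the last. Of the gene values recomputed 17 reversed, all of them near 0 in the reported fit apart from *Skap2*. In metatherian CRX *Hoxd12* (0.08) ran from -0.11 to 0.22 leaving out each library, *Hoxc10* (-0.08) from -0.37 to 0.27 and *Mtx2* (0.04) from -0.12 to 0.18; limma voom gave 0.26 and -0.08 for *Hoxc10* and *Mtx2*, and leaving out the libraries numbered 3 gave 0.3 and -0.1. In eutherian CRX *Calcoco1* (0.02) ran from -0.1 to 0.23, *Skap2* (-0.22) from -0.5 to 0.05 and *Mtx2* (0.08) from -0.05 to 0.18, with -0.01 by limma voom for *Mtx2* and 0.06 without the libraries numbered 3 for *Skap2*. Where no construction is named the cause was not tested. *Hoxb1*, *Hoxb13* and *Hoxd1* were too low to test at the depth of these libraries.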

Other observations

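Some genes of the clusters that are not *Hox* genes by name were under the FPKM minimum and are given as values. *Hoxb5os*, a noncoding gene of *HoxB* that shares 7.01% of the exon bases of *Hoxb7*, had 0.978, 1.39 and 3.92 CPM in control, 0.462, 0.487 and 0.992 CPM in eutherian CRX and 0.300, 0.411 and 0.775 CPM in metatherian CRX. *Evx2*, a homeobox gene at the posterior end of *HoxD*, had 4.18, 4.08 and 1.76 CPM in control, 4.43, 4.08 and 2.62 CPM in eutherian CRX and 3.01, 4.53 and 1.35 CPM in metatherian CRX, lowest in library 3 of each condition as for *Hoxd13*.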
